A study of Mus musculus with 9 samples.

Results

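MyoD1 occupancy was examined at 9 genes of the muscle cytoskeleton and nuclear envelope, namely Des, Vim, Nes, Synm, Plec, Lmna, Syne1, Syne2 and Cryab. A locus was the gene body with 10 kb on each side (mm10, GENCODE M21), and every called peak that overlapped a locus was a member. This gave 224 of the 116126 peaks in the 6 lists. Merging peaks that overlapped or touched gave 67 of 58309 regions. The peaks come from CUT and RUN, in which an antibody directs a nuclease to a chromatin protein and the released DNA is sequenced. The cells were C2C12, a mouse skeletal myoblast line, and all 6 libraries came from 1 engineered line grown from a single-cell clone. That line carries 3xF-Halo (Flag and HaloTag) on its own MyoD1 and an additional dox-inducible 3xF-Halo-MyoD1 driven by a TRE3GS promoter, so the anti-Flag antibody reads both sources together. Cells were switched to differentiation medium for 6 h either without doxycycline (no dox, 3 biological replicates) or with it (+dox, 3 biological replicates). The transgene is not raised in every nucleus, and the 3 libraries from wild-type C2C12, which carry no Flag, were not analysed here, so no untagged background stands beside these values.

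Intermediate filaments give the cytoplasm of a muscle cell its tensile scaffold. Vimentin (Vim) and nestin (Nes) filaments are typical of myoblasts, and desmin (Des) takes over as the main filament of muscle fibres, where synemin (Synm) joins it. Plectin (Plec) is the large cross-linker that ties these filaments to Z-discs, membranes, mitochondria and nuclei through isoforms made from alternative first exons. Lamin A/C (Lmna) lines the inside of the nuclear envelope, and nesprin-1 (Syne1) and nesprin-2 (Syne2) cross the outer membrane to couple the nucleus to the cytoskeleton. Alpha-B crystallin (Cryab) is a small heat shock protein that chaperones desmin. MyoD1 binds the E-box CANNTG as a dimer with E proteins and prefers the core CAGCTG.

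The DNA under the summits is shown for the lead region of each locus, which is the region called in the most libraries and, among those, with the highest mean height. Each line gives the GRCm38 sequence from 100 bp before to 100 bp after the centre of the maximum, on the plus strand, for the 5 lead regions called in all 6 libraries whose window overlaps no UTR. The maximum is that of the single library in which the region ranked highest within its own list. Distances of maxima from gene starts below use the same library. Capitals mark the preferred E-box CAGCTG, a further E-box form searched on both strands, CAGGTG, and the AP-1 type motif TGANTCA.
Plec (chr15:76206976-76207176): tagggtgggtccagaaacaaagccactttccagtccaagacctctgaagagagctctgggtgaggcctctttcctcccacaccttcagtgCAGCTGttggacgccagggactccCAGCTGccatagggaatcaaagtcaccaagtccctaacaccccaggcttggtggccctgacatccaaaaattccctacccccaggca
Syne1 (chr10:5194776-5194976): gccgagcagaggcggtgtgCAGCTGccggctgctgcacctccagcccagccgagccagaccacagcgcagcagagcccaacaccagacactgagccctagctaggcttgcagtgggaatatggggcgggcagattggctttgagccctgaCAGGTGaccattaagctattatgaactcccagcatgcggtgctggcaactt
Des (chr1:75360126-75360326): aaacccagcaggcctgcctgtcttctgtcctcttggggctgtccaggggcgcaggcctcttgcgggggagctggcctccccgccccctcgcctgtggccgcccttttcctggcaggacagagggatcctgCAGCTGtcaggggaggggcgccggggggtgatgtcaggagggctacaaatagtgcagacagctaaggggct
Nes (chr3:87983126-87983326): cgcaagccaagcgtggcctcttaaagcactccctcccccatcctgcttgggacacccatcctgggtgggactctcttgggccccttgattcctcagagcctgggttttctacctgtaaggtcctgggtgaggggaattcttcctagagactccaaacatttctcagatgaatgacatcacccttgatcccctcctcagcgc
Lmna (chr3:88492976-88493176): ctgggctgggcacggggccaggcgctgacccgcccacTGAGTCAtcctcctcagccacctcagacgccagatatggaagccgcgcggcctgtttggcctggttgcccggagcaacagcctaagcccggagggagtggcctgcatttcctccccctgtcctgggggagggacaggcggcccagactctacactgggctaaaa

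The Plec window holds a pair of CAGCTG sites, with centres 7 and 16 bp from the centre of the maximum. That maximum is from +dox replicate 3, and the maxima of the libraries spread over 1750 bp there, so the window does not hold them all. The spread was 100 bp at Syne1, 50 bp at Des, 200 bp at Nes and 400 bp at Lmna. The Syne1 window holds 1 CAGCTG and 1 CAGGTG on opposite sides of the maximum, at 78 and 52 bp. In the Des window the single CAGCTG sits 32 bp from the maximum and 70 bp upstream of the gene start. The Nes window has none of the marked motifs and 1 CANNTG of another form, and the whole 2850 bp region holds 8 CAGCTG sites. The Lmna window has no CANNTG at all and 1 TGAGTCA, 60 bp from the maximum. Its whole 8250 bp region holds 4 CAGCTG sites. The windows of Cryab, Vim and Synm overlap a UTR and are not printed. The Cryab window has 1 CAGCTG, 37 bp from the maximum, and the Vim and Synm windows have no CANNTG. Maxima spread over 75 bp at Cryab, 650 bp at Vim and 725 bp at Synm.

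The libraries were unequal. Depths ran from 2868000 to 8030000 alignments and lists from 9389 to 53661 peaks, with +dox replicate 3 at the upper end of both. Height is given as the maximum signal in CPM and as its percentile within the library's own list, where 100 is the tallest peak. In the long list of +dox replicate 3 a given percentile is reached at a lower signal: a maximum of 16 alignments at Synm ranked at 60.2 there and at 37.5 in no dox replicate 2. CPM carries no spike-in scale, so amounts of bound MyoD1 cannot be compared between libraries. The lowest maxima in a list were 4 to 6 alignments. Between 96.2% and 99.5% of maxima under 50 alignments were even numbers, so 1 DNA fragment mostly counted as 2 alignments.

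Occupancy at the 9 loci was already present without dox and was concentrated in a few places. Of the 67 regions, 15 (22.4%) were called in all 6 libraries, against 8.30% of regions genome-wide. A further 17 were called in 2 to 5 libraries and 35 in a single library, 31 of those in +dox replicate 3. Regions called in all 6 libraries occurred at 1.30 per 100 kb of the 9 loci and at 0.178 per 100 kb of the genome, and 11 of the 15 lay within 1 kb of a coding transcript start. The genome figure includes sequence far from genes. No genome-wide share stands beside the 11 of 15, so neither value sets these loci apart from other genes. Every locus except Syne2 had at least 1 such region, that is 8 of 9, where the background over protein-coding genes was 21.7% (4755 of 21911 genes). The median locus length was 49.6 kb for the 9 genes and 37.4 kb for all genes. Plec and Lmna had 4 each, which 33 genes of the genome exceeded and 47 genes, themselves included, equalled.

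**Figure D1:**
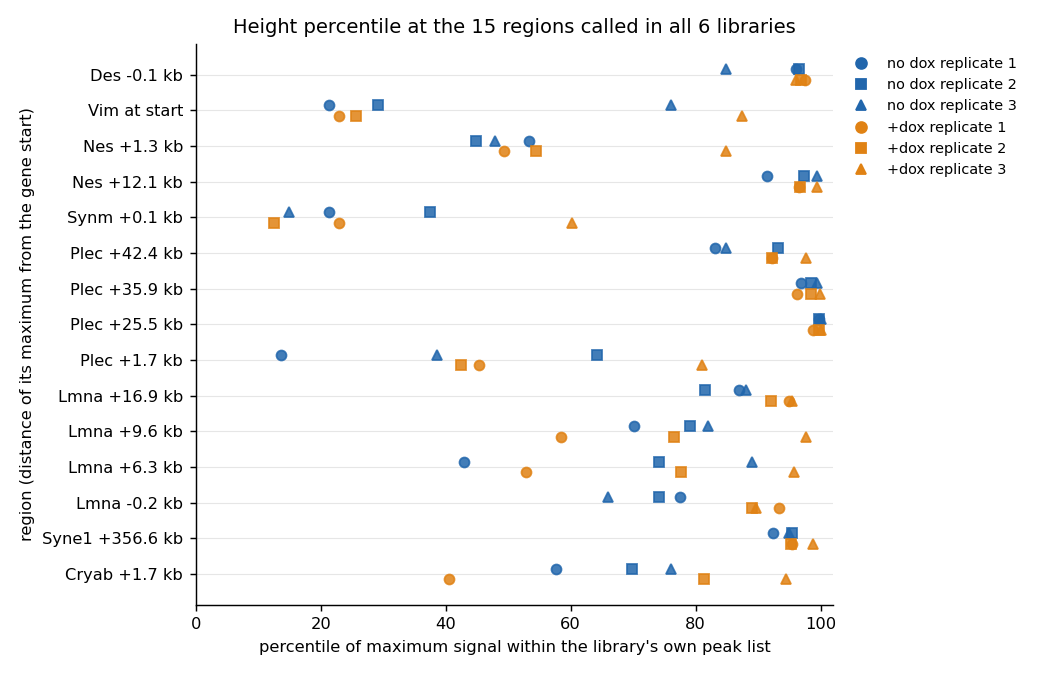
Height percentile of each library (x axis, percentile of maximum signal within the library's own list) at the 15 regions called in all 6 libraries (y axis, with the distance of the maximum from the gene start). Blue is no dox, orange is +dox, and circle, square and triangle are replicates 1, 2 and 3. Des, the Plec regions 25498 and 35948 bp into the gene, the downstream Nes region and Syne1 stay at 84.8 or above in every library. Vim runs from 21.4 to 87.4 and Synm from 12.5 to 60.2.

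Among the filament genes, Des had the tallest promoter peak. Its lead region (chr1:75358851-75361150) has its maximum 103 bp upstream of the gene start, and the maxima of the 6 libraries lay within 50 bp of each other. Percentiles were 96.0, 96.6 and 84.8 in no dox replicates 1, 2 and 3 and 97.5, 96.9 and 96.0 in +dox replicates 1, 2 and 3. The maximum was 28.9, 31.2 and 7.71 CPM without dox and 83.0, 53.9 and 15.7 CPM with dox. In CPM the groups overlapped, since +dox replicate 3 lay below no dox replicates 1 and 2, and each +dox library was above the no dox library with its number. With libraries centred on their own median the difference was 0.19 ± 0.551 (log2, SE, n = 3 against 3), which limma did not call (adjusted p = 0.984 over 4838 regions). Of the 3 other Des regions, all downstream of the gene, 2 were called in 1 library of each group and 1 in +dox replicate 3 alone. One of them lies 179 bp from a start of the neighbouring gene Speg.

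Vim, by contrast, had a low peak at its start. The region (chr2:13573251-13574900) has its maximum 1 bp from the gene start and holds no CANNTG over its whole 1650 bp, the only one of the 28 regions called in at least 2 libraries of a group without it. Percentiles were 21.4, 29.1 and 76.1 without dox and 23.0, 25.7 and 87.4 with dox. Replicates 3 of both groups stood above the other 4 libraries, and the groups overlapped. The maximum was 3.26, 3.16 and 5.57 CPM without dox and 4.88, 4.45 and 6.23 CPM with dox, or 14 to 26 and 14 to 50 alignments. The centred difference was -0.51 ± 0.504 (log2, SE; limma adjusted p = 0.983).

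Nes had its tallest region behind the gene rather than at the promoter. The maximum of chr3:87981951-87984800 lies 12148 bp from the Nes start, past the end of the gene, and 11229 bp from the start of Bcan, the nearest other coding start. Percentiles there were 91.4, 97.3 and 99.5 without dox and 96.5, 96.7 and 99.4 with dox. Maxima were 18.6, 36.1 and 45.0 CPM without dox and 67.6, 52.3 and 47.1 CPM with dox. The 3 +dox maxima were all above the 3 no dox maxima in CPM, while the percentiles overlapped and the centred difference was -0.11 ± 0.476 (log2, SE; limma adjusted p = 0.99). The other region called in all 6 libraries (chr3:87969851-87974750) spans the start and first part of the gene, with the maximum in an intron. It ranked at 53.3, 44.9 and 47.9 without dox and at 49.3, 54.4 and 84.8 with dox. Nes also had 3 weaker places, 10202 bp upstream (called in 2 no dox and 3 +dox libraries), in a coding exon (1 and 2) and 15798 bp from the start and past the gene end (1 and 3).

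Synm had the weakest region of those called everywhere. It lies over the first exon (chr7:67758601-67760150), with the maximum in a UTR 8 bp from an annotated Synm start, and reaches into the locus of the neighbouring gene Ttc23. Percentiles were 21.4, 37.5 and 14.9 without dox and 23.0, 12.5 and 60.2 with dox, from maxima of 14, 16 and 8 and of 14, 12 and 16 alignments. The groups overlapped fully. The centred difference of -0.70 ± 0.37 (log2, SE) was not called (limma adjusted p = 0.983, and adjusted p = 0.414 with the replicate block).

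Plec carried the tallest peak of the 9 loci and the most regions (17). The lead region (chr15:76202901-76209300) has its maximum in an intron, 25498 bp into the longest gene model and 754 bp from the start of a shorter Plec transcript. Percentiles were 99.7, 99.7 and 100 without dox and 98.8, 99.8 and 100 with dox. Maxima were 101, 125 and 82.3 CPM (435, 554 and 384 alignments) without dox and 116, 172 and 172 CPM (333, 620 and 1383 alignments) with dox. In CPM 2 of 3 +dox libraries lay above all no dox libraries. Since the list medians also differed, the centred difference was -0.35 ± 0.414 (log2, SE; limma adjusted p = 0.983).

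A second wide Plec region (chr15:76192851-76202250), 916 bp from another transcript start, ranked at 96.9, 98.5 and 99.4 without dox and at 96.2, 98.4 and 99.9 with dox. Further into the gene, chr15:76186001-76191100 had its maximum over a coding exon and ranked at 83.1, 93.2 and 84.8 without dox and at 92.2, 92.2 and 97.6 with dox. The region at the start of the longest gene model (chr15:76230301-76233950) was lower and more variable, at 13.6, 64.3 and 38.6 without dox and 45.3, 42.4 and 81.1 with dox. In every library the region at the outermost start was lower than each of the 3 internal ones. Plec also held the only region of the 9 loci called in every +dox library and in 0 no dox libraries (chr15:76228901-76229900), in a coding exon 121 bp from a Plec transcript start. It was low, at 14, 16 and 12 alignments and percentiles of 23.0, 25.7 and 44.8 in +dox replicates 1, 2 and 3.

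**Figure D2:**
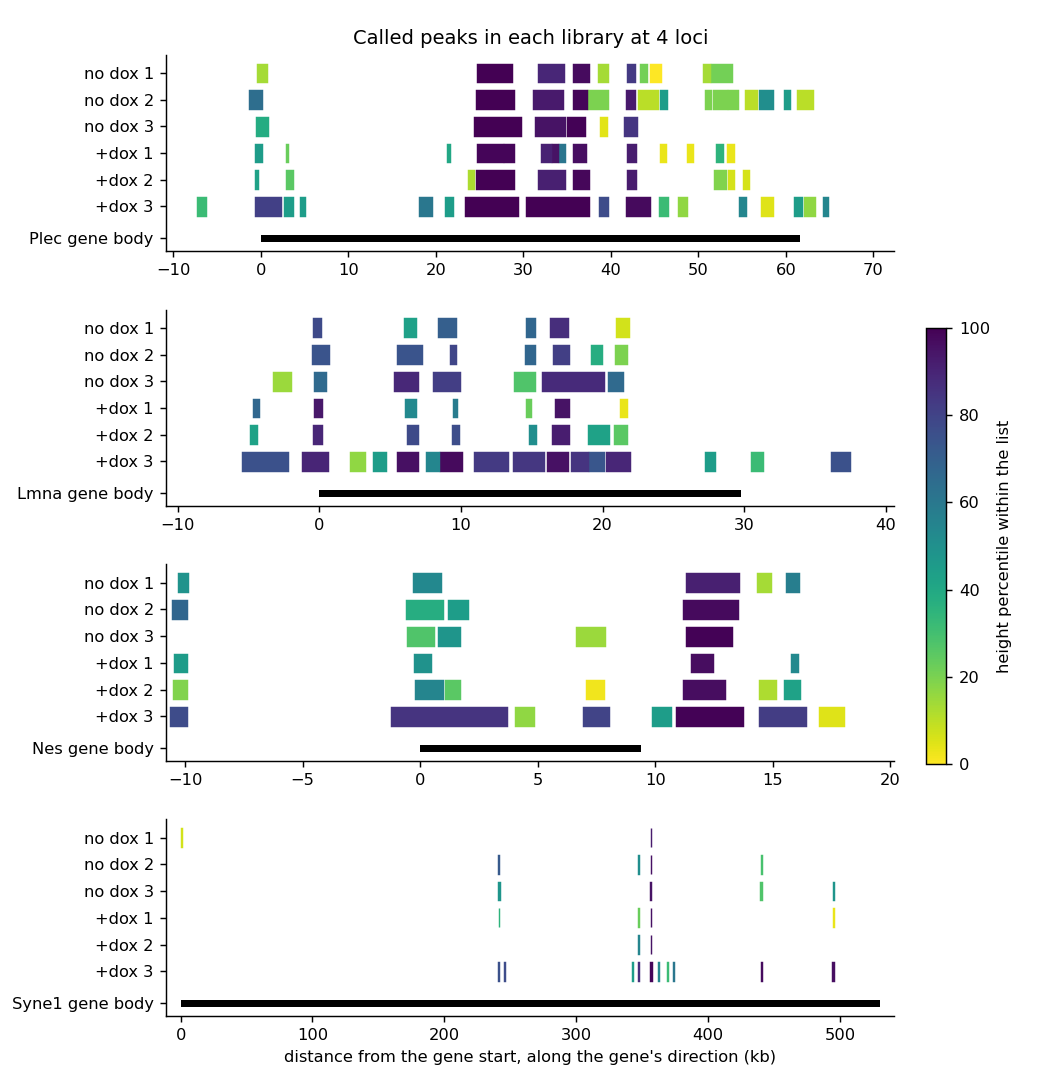
Called peaks of each library (rows) at Plec, Lmna, Nes and Syne1, along the distance from the gene start in kb (x axis). The colour gives the height percentile within the library's list and the black bar is the gene body. In Plec the darkest intervals lie inside the gene in every library, in Nes behind the gene end, and in Syne1 at an internal position at 356606 bp. In +dox replicate 3 further Syne1 intervals are nearly as dark, at 96.4 and 97.0 beside 98.8.

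At Lmna the occupancy was spread over the promoter and intronic positions. The lead region (chr3:88488001-88496250) has its maximum in an intron 16880 bp from the gene start and 236 bp from the start of a shorter transcript. Percentiles were 86.9, 81.5 and 88.1 without dox and 94.9, 92.0 and 95.5 with dox. The maximum was 14.4, 9.93 and 9.0 CPM without dox and 54.0, 30.6 and 14.4 CPM with dox. The percentiles of the groups did not overlap, while in CPM no dox replicate 1 and +dox replicate 3 were both at 14.4. The centred difference was 0.48 ± 0.437 (log2, SE; limma adjusted p = 0.983). This region is 8250 bp wide and held 3 to 5 peaks per library, of which the tallest gave the height. The promoter region (chr3:88509251-88511200), with its maximum 170 bp upstream of the start, ranked at 77.5, 74.2 and 66.0 without dox and at 93.4, 89.1 and 89.7 with dox. Its maximum was 9.77, 7.68 and 4.29 CPM without dox and 45.3, 25 and 7.47 CPM with dox, so in CPM +dox replicate 3 fell inside the no dox range. The centred difference there was 0.65 ± 0.514 (log2, SE) and was not called (limma adjusted p = 0.983). It was 0.22 without +dox replicate 1 and 1.18 without +dox replicate 3 (limma adjusted p = 0.257).

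The other Lmna regions behaved otherwise. In the intronic region at 9630 bp (chr3:88499851-88502400) percentiles were 70.2, 79.1 and 82.0 without dox and 58.4, 76.6 and 97.6 with dox. In that at 6330 bp (chr3:88502701-88504700) they were 43.0, 74.2 and 89.1 without dox and 52.8, 77.7 and 95.7 with dox. In both the groups overlapped, and replicate 3 was the highest library of its group. A region 4520 bp upstream (chr3:88511951-88515400) was called in 1 no dox library, at 14.9, and in 3 +dox libraries, at 67.2, 42.4 and 75.3.

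Of the nesprin genes, Syne1 had 1 region called in all 6 libraries (chr10:5194251-5195350), far inside the gene at 356606 bp from its start, in an intron 169 bp from the start of a shorter transcript. Percentiles were 92.4, 95.5 and 95 without dox and 95.4, 95.2 and 98.8 with dox. Maxima were 20.0, 26.2 and 15 CPM without dox and 57.5, 41.7 and 32.9 CPM with dox, all +dox values above all no dox values. The centred difference was 0.18 ± 0.347 (log2, SE; limma adjusted p = 0.983). Nothing else in the 551 kb locus was called in every library, and no region at the outermost Syne1 start was called in more than 1.

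Of the 4 other Syne1 regions called more than once, 3 had their maximum on a coding exon and 1 in an intron. Of those called in a single library, 1 had it on a coding exon and 4 in an intron. Coding exons make up 5.00% of the gene. In Plec, 4 regions called in 2 to 5 libraries also had their maximum on a coding exon. No genome-wide share of such maxima stands beside these counts, so they do not set Syne1 apart. At chr10:5056001-5057350 the maximum was 14 alignments in no dox replicate 3, 8 in +dox replicate 1 and 136 in +dox replicate 3. At chr10:5110451-5111800 it was 14 and 10 alignments in no dox replicates 2 and 3 and 154 in +dox replicate 3, the only region of the 9 loci called in at least 2 no dox and at most 1 +dox libraries. At both, the height with dox thus rests on +dox replicate 3, where they ranked at 96.4 and 97.0. The cause was not tested.

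Syne2 had 0 peaks in each of the 3 no dox libraries and 1, 0 and 7 in +dox replicates 1, 2 and 3. The region at its start (chr12:75817901-75819150), 67 bp from the transcript start and with 1 CAGCTG in the window, was called in +dox replicate 1 at 10 alignments and in +dox replicate 3 at 16 alignments. The 6 other regions were called in +dox replicate 3 alone. The first call ranked at 9.05, near the lower end of its list, and the second at 60.2. Since the lists differ in depth and length, an absent call does not show an absent peak.

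Cryab had 1 region (chr9:50752001-50753650) and 1 peak in every library. The maximum lies in a UTR, 17 bp from a Cryab transcript start, and the interval is also within 10 kb of Hspb2, the small heat shock gene next to it, so the peak cannot be given to either gene. Percentiles were 57.7, 69.9 and 76.1 without dox and 40.6, 81.4 and 94.5 with dox, with maxima of 6.05, 6.77 and 5.57 CPM and of 6.97, 16.7 and 12.5 CPM. In CPM all +dox values were above all no dox values. In percentile +dox replicate 1 was the lowest of the 6, and the centred difference was -0.04 ± 0.473 (log2, SE; limma adjusted p = 0.996).

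**Figure D3:**
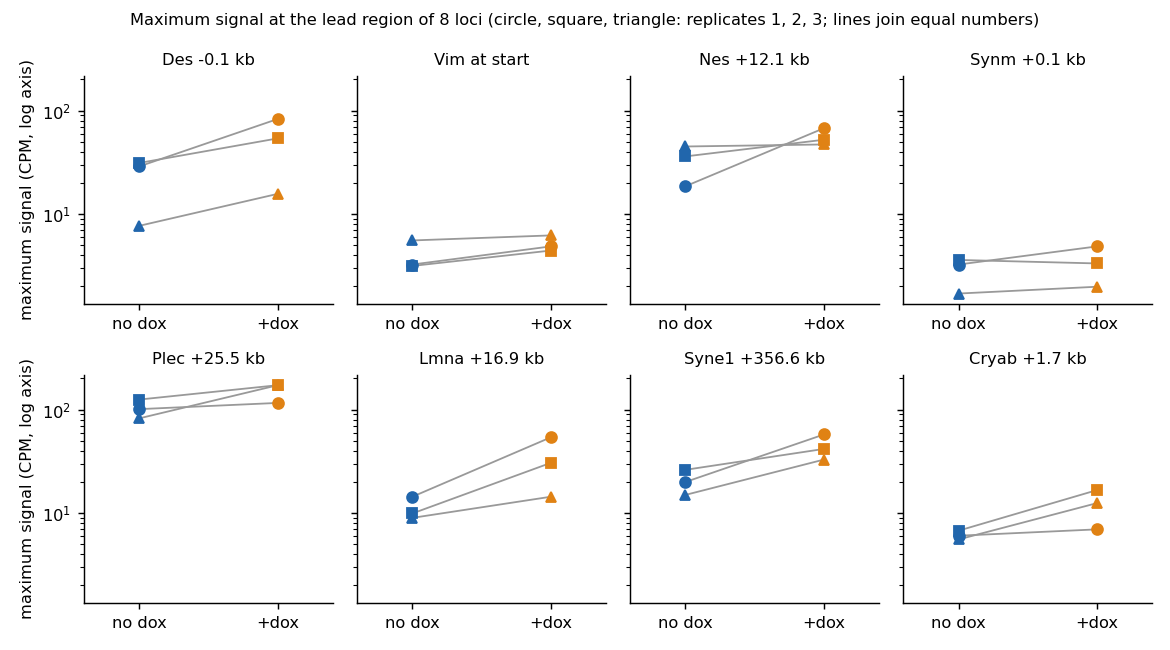
Maximum signal in CPM (log axis) at the lead region of the 8 loci with a region called in all 6 libraries, without dox (blue) and with dox (orange). Lines join libraries of equal replicate number. In 23 of 24 lines the +dox point is the higher one, the exception being Synm in replicate 2, at 3.61 and 3.34 CPM.

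The comparison of both groups asks whether raised MyoD1 brought more or taller peaks to these loci. The number of peaks was 28, 34 and 27 without dox and 35, 31 and 69 with dox, or 29.7 ± 3.79 and 45.0 ± 20.9 (SD, n = 3 each). The difference of 15.3 peaks was smaller than the SD of the +dox libraries, was 3.33 without +dox replicate 3, and was -3.00 when all lists were shortened to their 9389 tallest peaks. As a share of each list the loci held 0.298%, 0.245% and 0.201% of peaks without dox and 0.279%, 0.234% and 0.129% with dox. The groups overlapped in both measures. Within replicates 1, 2 and 3 the number of peaks differed by 7, -3 and 42 (+dox minus no dox), and the share by -0.0190, -0.0112 and -0.0729 percentage points, lower with dox in 3 of 3 pairs. The share difference was 0.00826 between group means without +dox replicate 3. That comparison keeps no dox replicate 3, the lowest no dox share. By locus, Plec had 10.3 ± 4.51 and 13.7 ± 3.51 peaks (no dox and +dox, SD, n = 3 each), Lmna 6.67 ± 0.577 and 10.3 ± 4.93, and Nes 4.33 ± 0.577 and 6.33 ± 2.08. At each of the 9 loci except Cryab +dox replicate 3 had the most peaks of the +dox libraries.

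**Figure D4:**
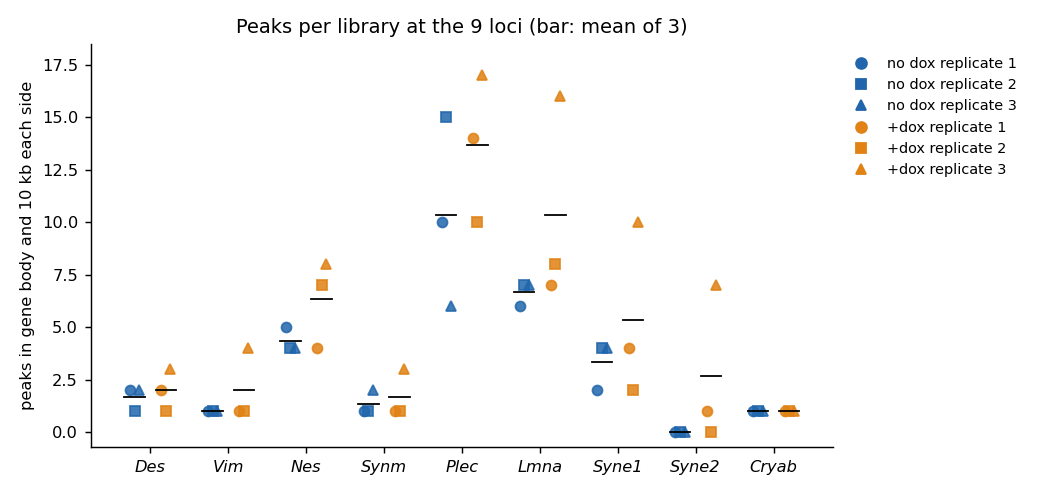
Number of called peaks per library (y axis) in each locus, with blue for no dox, orange for +dox, shapes for replicates 1, 2 and 3, and a bar at the mean of 3 libraries. Leaving +dox replicate 3 aside, the +dox point furthest above the no dox range is replicate 2 at Nes, with 7 peaks against at most 5. There +dox replicate 1, with 4 peaks, lies within the no dox range.

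Counting a region for a group when at least 2 of its 3 libraries called it, 19 regions were present without dox, 27 with dox and 28 in either. Of the 28, 9 were called in at least 2 +dox and at most 1 no dox libraries, where the genome-wide background was 36.1% (5327 of 14755). These 9 lay in Nes (2), Plec (3), Lmna (1), Syne1 (2) and Syne2 (1), and none in Des, Vim, Synm or Cryab. Without +dox replicate 3 their number was 4, and with lists of equal length 3. In the other direction there was the 1 Syne1 region of 28 (background 6.51%). Of regions called in every +dox library and in 0 no dox libraries there was the 1 in Plec, of 28 (background 4.30%). Counted over all regions, lone calls included, 13.4% of the 67 were called in at least 2 +dox and at most 1 no dox libraries, against 9.14% genome-wide, and 40.3% in at least 2 +dox libraries, against 23.7%. For regions called in at least 2 +dox and at most 1 no dox libraries, the order of loci and genome thus depends on which regions are counted.

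At the 15 regions called in all 6 libraries the mean percentile was 67.0, 75.7 and 76.1 without dox and 70.5, 75.4 and 91.9 with dox, or 72.9 ± 5.18 and 79.3 ± 11.2 (SD, n = 3 each). The difference of 6.32 percentile points was within the SD of the +dox libraries and was 0.00673 without +dox replicate 3. Within replicates 1, 2 and 3 it was 3.53, -0.307 and 15.8. Ranked only among the 4838 regions called in all 6 libraries, where list length plays no part, the means were 55.7 ± 3.11 and 57.2 ± 1.77 (SD, n = 3 each). At 2 of the 15 regions, the Lmna promoter and the Lmna lead region, all +dox percentiles lay above all no dox ones, where the background was 23.7% (1146 of 4838). At 0 of 15 they all lay below (background 0.0413%).

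Tested region by region, limma on centred log2 maxima called 0 of the 15 as higher (background 0%) and 0 as lower (background 0%). Of all 4838 regions 123 had an unadjusted p under 0.05, and 0 of the 15 did. With the replicate number as a block in this fit, limma gave 572 and 1, and again called 0. The 1 was the Synm region, lower with dox (limma unadjusted p = 0.0422). The centred difference was positive at 5 of 15 regions, with a median of -0.04 over the 15 and -0.02 over all. In CPM without centring the median region was higher with dox by 0.91 (log2). Centring removes the shift between library medians, which was close to this value. Kept in, the difference was positive at 15 of 15 with a median of 0.89, and +dox was the higher in 15, 14 and 15 of 15 regions within replicates 1, 2 and 3, against 87.9%, 86.7% and 91.6% of all regions. Within replicates the median log2 ratios were 0.962, 0.622 and 0.802 at the 15 regions and 1.17, 0.686 and 0.933 over all. Without centring and with the replicate number as a block, limma called 8 of the 15 as higher (background 53.5%) and 0 as lower (background 0.0620%). Without the block it called 0 of 4838 (smallest adjusted p = 0.203, and 1173 at an unadjusted p under 0.05). The 8 were those of Des, Syne1 and Cryab, 2 of Plec and 3 of Lmna. Whether the shift shared by the whole genome is more bound MyoD1 or a property of the libraries cannot be told apart without a spike-in.

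**Figure D5:**
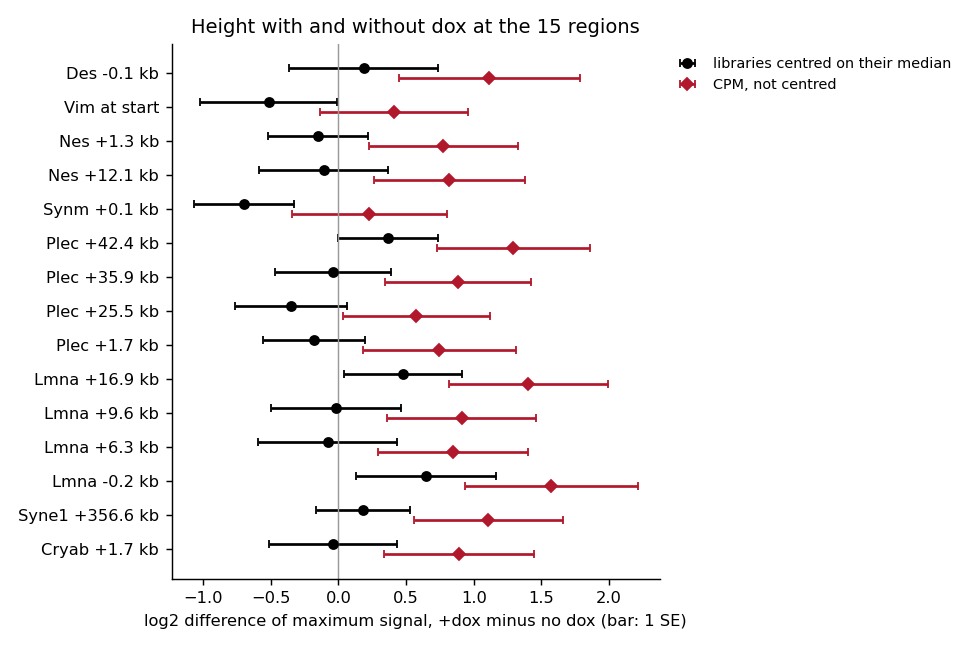
Difference of the log2 maximum signal, +dox minus no dox, at the 15 regions (limma estimate, bar 1 SE, n = 3 against 3). Black points are from libraries centred on their median and lie on both sides of 0, from -0.70 to 0.65. Red points are from CPM without centring and are all above 0.

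The sequence under the peaks was compared with that of all regions called in at least 2 libraries of a group. Within 100 bp of the maximum CAGCTG occurred in 15 of the 28 regions (53.6%, 95% Wilson interval 35.8 to 70.5) and in 38.4% of 14754 regions genome-wide, both strands being the same for this palindrome. CAGGTG, on either strand, occurred in 7 of 28 and in 19.0% genome-wide, any CANNTG, which includes both forms, in 82.1% and 71.7%, and TGANTCA in 21.4% and 13.1%. Within 50 bp CAGCTG occurred in 35.7%, against 25.3% genome-wide, and TGANTCA in 3.57%, against 6.44%. The order of loci and genome for CANNTG and TGANTCA thus depends on the window. Over whole regions CAGCTG occurred in 26 of 28 (92.9%), against 72.8%, and CANNTG in 96.4%, against 98.9%. These regions differ in length and the interval covers counting error only, so the shares are a description.

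Related genes were followed in the same way. Of 6 other plakin genes, the family of Plec, 5 had a region called in all 6 libraries, with 3 in Macf1 and 2 in Dst, in loci of 355 and 420 kb, and none in Dsp. Of 13 other envelope genes 7 did, led by Syne3 (nesprin-3, the nesprin that binds plectin) with 4, while Sun2, which anchors nesprins from the inner membrane, had no region in at least 2 libraries of either group. Of 7 other genes of small heat shock proteins and their partners 4 did: Hspb1 with 2, Hspb6, Bag3 (a co-chaperone of that system and not a small heat shock protein) and Hspb2, whose region is the Cryab region described above. Of 8 other intermediate filament genes only Sync (syncoilin, a muscle filament protein) did, and the neuronal and glial filament genes Nefl, Nefm, Gfap and Prph had none in at least 2 libraries of a group, while Ina, a further neuronal filament gene, had 1 with dox. Counted in at least 2 libraries, the plakins had 5 genes without dox and 6 with dox, the envelope genes 10 and 11, the small heat shock list 6 and 6, and the filament genes 2 and 3. Over all 21911 protein-coding genes the counts were 7823 and 10617.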

How the data were processed

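CUT and RUN reads were processed by the authors with nf-core/cutandrun 3.2.2 on mm10 (blacklist removed, coverage scaled to CPM), and peaks were called in each library by SEACR in relaxed mode. Settings for a control library or a threshold are not given in the sources used here. Each deposited list holds intervals with total and maximum signal (coverage in CPM). Maxima were whole multiples of 1 step in 100% of peaks, which gave depths of 2868000 to 8030000 alignments. Loci followed GENCODE M21 (gene body, 10 kb each side), and sequences were read from GRCm38.

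Regions are peaks merged over the 6 lists. Those called in all 6 libraries were compared with limma 3.58.1 (R 4.3.3) on log2 maximum CPM, centred on each library's median over these 4838 regions, with Benjamini-Hochberg adjustment over all of them. A call was an adjusted p under 0.05. The fit was also run on simulated data with independent noise and a capped spread, so that run does not show how it performs on these libraries. No pseudocount was needed. Other steps used Python 3.11.15, NumPy 2.4.6 and pandas 2.3.3.

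The 9 genes and the gene lists were chosen with earlier results of these data known. Named regions were the lead region of each locus and any called in 3 of 3 libraries of a group and 0 of 3 of the other, and other regions were named after their values were seen. Replicate numbers carry no stated batch. Deviations from group means correlated between same-numbered libraries at 0.485, 0.267 and 0.628. Each library correlated best with its own number, but +dox replicate 2 did so only narrowly, at 0.265 with no dox replicate 1. The numbers were taken as pairing for differences within replicates and for fits with a replicate block. The main fit has no block, so SE and adjusted p are unpaired unless a block is named. Alternatives changed list length, flank, merging, scaling, motif window and libraries.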

Additional observations from a re-analysis of the deposited data

How the results depend on the processing

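Of 179 recomputed values 148 were classed as unchanged, 21 reversed, 7 moved and 3 kept their direction and passed the threshold. A difference was classed as unchanged if it kept its sign and moved by less than the SD within groups. Counts had to stay near the main count, and lead-region fits had to keep sign and side of the threshold. The class is thus wide: 6.32 falling to 0.00673 is in it. A replicate block cannot change a difference of means here, so such values were unchanged by design. Cryab, 1 of the 21, passed it as well. The peak difference of 15.3 became -3.00 with lists of equal length and -0.667 with +dox replicate 3 alone shortened (chosen after seeing the data), and ran from 3.33 (without +dox replicate 3) to 22.3 leaving out 1 library. The share difference of -0.0344 percentage points was -0.0670 to 0.00826 leaving out 1 library, with the positive end from omitting +dox replicate 3. The percentile difference of 6.32 became -0.0907 with equal lists (12 regions left) and ran from 0.00673 to 10.7 leaving out 1 library. The 9 regions called mainly with dox became 3 with equal lists, 1 when 3 of 3 and 0 of 3 were asked for, and 4 to 12 leaving out 1 library. The CAGCTG share of 53.6% (38.4% genome-wide) was 35.7% within 50 bp (25.3%) and 92.9% over whole regions (72.8%).

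With the replicate block the centred fit still called 0 regions (smallest adjusted p = 0.363, and 0.414 at the loci), so in centred data the block changed no call. Without centring the block decided the calls: without it limma called 0 (1173 at an unadjusted p under 0.05, smallest adjusted p = 0.203). With it, a fit added after seeing the data, limma called 2589 regions, 8 of them at the loci, with adjusted p = 0.0141 for Des, 0.00275 for Lmna, 0.0145 for Syne1 and 0.0460 for Cryab among the lead regions. Log2 differences then reversed to 0.41 (Vim), 0.82 (Nes), 0.23 (Synm), 0.58 (Plec) and 0.89 (Cryab), the same without the block. This follows from leaving in the shift between libraries, which was 0.91 at the median region. Total signal reversed Lmna to -0.04, and quantile normalization Cryab to 0.04. Leaving out 1 library, Des ran from -0.25 to 0.70, Nes from -0.52 to 0.37 and Cryab from -0.29 to 0.46. The cause was not tested. Peaks of 4 to 16 alignments limit what can be called, and p-values measure only the spread between 3 libraries a group.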
